A study of Homo sapiens with 9 samples.

Results

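The genes described here encode the enzymes that build nucleotides and supply their one-carbon units. There are 35 of them among the 62700 genes of the deposited table, chosen by gene symbol from the pathway, and they were sorted into 5 branches: 14 purine, 6 pyrimidine, 7 deoxynucleotide, 5 folate and 3 serine genes. RNA was sequenced from HAL-01, a line of B-ALL, that is acute lymphoblastic leukemia of the B lineage, whose t(17;19) translocation makes the fusion transcription factor TCF3::HLF. All cells, controls included, stably expressed Cas9GFP. The genotype MEF2C Enhancer KO was produced with either of 2 guides, sgRNA_96 or sgRNA_97, aimed at the HLF motif of an enhancer of MEF2C, and the scrambled guide SCR1 served as control. Each guide has 3 libraries, numbered 1, 3 and 4 and collected on day 13. HAL-01 is a single cell line, the share of edited cells was not analysed here, and nothing in the labels says that the replicates came from separate cultures, so the p-values measure the spread between these libraries, which may be technical.

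The purine ring is assembled stepwise on ribose phosphate, whereas the pyrimidine ring is made first and then joined to the sugar. Ribonucleotide reductase turns ribonucleotides into the deoxynucleotides from which DNA is copied, and thymidylate synthase makes the thymine nucleotide with a methylene group carried by folate. That carbon comes mainly from serine, through serine hydroxymethyltransferases in the cytosol and in mitochondria, and the same folate pool gives carbons to the purine ring. Cells that copy their DNA draw heavily on these routes, and antifolates, thiopurines and nucleoside analogues used against acute lymphoblastic leukemia act on them.

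The promoters of 7 of these genes are shown because the first 5 belong to deoxynucleotide and folate genes that fell together and the last pair start back to back, and of them PAICS was called and PPAT was not. Sequences are RefSeq windows on GRCh38.p14, from 250 bases before to 50 bases after the start and read in the direction of the gene. Where a gene has several windows, the one with most motif matches is given, or the first of those that tie. Capitals mark every match, on either strand, to the motif strings searched: E2F (TTTCCCGC, TTTGGCGC, TTCCCGCC, TTTCGCGC, TTTGCCGC, TTTCCGCC), the MYC E-box (CACGTG), the ATF4 composite site (TGATGCAAT, TGATGAAAT, TGATGCAAC), the CCAAT box (CCAAT), NRF1 (GCGCATGC, GCGCACGC) and HLF (TTACGTAA, TTATGTAA, TTACATAA). The windows are TK1 chr17:78187003-78187302 (minus strand), RRM2 chr2:10122489-10122788 (plus strand), RRM1 chr11:4094435-4094734 (plus strand), TYMS chr18:657403-657702 (plus strand), MTHFD1 chr14:64388103-64388402 (plus strand), PAICS chr4:56435502-56435801 (plus strand) and PPAT chr4:56435566-56435865 (minus strand).
TK1: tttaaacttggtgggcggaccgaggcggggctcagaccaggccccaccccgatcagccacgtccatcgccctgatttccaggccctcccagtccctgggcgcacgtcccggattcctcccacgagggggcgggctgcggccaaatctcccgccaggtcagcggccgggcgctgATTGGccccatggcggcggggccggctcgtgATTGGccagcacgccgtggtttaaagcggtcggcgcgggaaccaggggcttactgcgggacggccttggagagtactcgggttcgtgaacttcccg
RRM2: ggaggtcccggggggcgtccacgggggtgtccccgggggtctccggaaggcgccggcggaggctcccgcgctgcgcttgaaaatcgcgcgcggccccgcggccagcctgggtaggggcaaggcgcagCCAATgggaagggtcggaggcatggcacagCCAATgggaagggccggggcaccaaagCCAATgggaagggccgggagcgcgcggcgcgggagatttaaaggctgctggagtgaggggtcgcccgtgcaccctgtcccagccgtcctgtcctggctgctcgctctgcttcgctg
RRM1: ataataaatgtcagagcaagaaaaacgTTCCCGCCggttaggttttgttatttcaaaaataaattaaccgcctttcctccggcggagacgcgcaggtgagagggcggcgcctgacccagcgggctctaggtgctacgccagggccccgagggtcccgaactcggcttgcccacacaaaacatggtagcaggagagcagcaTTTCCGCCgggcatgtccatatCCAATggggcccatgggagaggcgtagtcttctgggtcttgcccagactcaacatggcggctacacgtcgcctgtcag
TYMS: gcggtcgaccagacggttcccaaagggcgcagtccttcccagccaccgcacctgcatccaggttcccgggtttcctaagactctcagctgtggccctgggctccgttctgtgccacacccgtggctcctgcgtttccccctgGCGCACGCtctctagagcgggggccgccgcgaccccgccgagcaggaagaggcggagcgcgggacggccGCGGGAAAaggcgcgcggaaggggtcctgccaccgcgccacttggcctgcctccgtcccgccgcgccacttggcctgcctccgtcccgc
MTHFD1: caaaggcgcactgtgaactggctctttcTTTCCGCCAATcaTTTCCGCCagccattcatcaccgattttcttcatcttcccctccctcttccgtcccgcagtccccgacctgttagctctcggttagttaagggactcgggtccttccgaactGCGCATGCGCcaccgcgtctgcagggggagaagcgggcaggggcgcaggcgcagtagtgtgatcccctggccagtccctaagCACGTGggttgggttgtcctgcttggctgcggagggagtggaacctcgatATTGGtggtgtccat
PAICS: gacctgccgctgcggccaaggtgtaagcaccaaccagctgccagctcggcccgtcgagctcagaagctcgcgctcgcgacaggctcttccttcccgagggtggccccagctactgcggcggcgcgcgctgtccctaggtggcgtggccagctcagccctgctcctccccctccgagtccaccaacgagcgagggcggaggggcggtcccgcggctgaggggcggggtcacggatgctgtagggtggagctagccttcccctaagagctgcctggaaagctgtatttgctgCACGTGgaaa
PPAT: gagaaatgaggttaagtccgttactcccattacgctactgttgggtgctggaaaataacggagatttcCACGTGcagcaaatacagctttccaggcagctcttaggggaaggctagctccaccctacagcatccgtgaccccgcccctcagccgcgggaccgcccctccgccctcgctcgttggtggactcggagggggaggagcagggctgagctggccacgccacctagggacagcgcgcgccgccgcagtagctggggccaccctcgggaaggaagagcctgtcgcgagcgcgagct

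In TK1 the capitals are 2 CCAAT boxes read on the opposite strand, and in RRM2 they are 3 CCAAT boxes in the direction of the gene. RRM1 holds 2 E2F strings and 1 CCAAT box. TYMS holds 1 NRF1 string and 1 E2F string, the latter on the opposite strand. MTHFD1 has the most matches of these windows, 7, namely 2 E2F strings, 2 CCAAT boxes, 2 NRF1 matches that overlap each other and 1 E-box, and its first E2F string shares bases with a CCAAT box. The single E-box marked in PAICS and in PPAT is one and the same site, since their windows share 236 bases.

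RefSeq windows matched 31 of the 35 genes, in 47 windows. An E2F string was found in 11 of the 47 windows (23.4%) against 6.83% of all 35116 windows, in DTYMK, DUT, GART, MTHFD1, MTHFD1L, PAICS, PRPS1, PRPS2, RRM1 and TYMS. The E-box was found in 10 windows (21.3%) against 7.26% of all, and the CCAAT box in 20 (42.6%) against 34.6%. The NRF1 strings occurred in 5 windows (10.6%, against 6.2% of all). The ATF4 composite was in 3 windows, all of MTHFD1L (6.38%, against 0.749%), and the HLF strings in 2, of CTPS1 and MTHFD1L (4.26%, against 1.01%). Of the members with a window, 17 were called lower in the KO and 14 were not. An E2F string was in 7 and 3 of them, the E-box in 4 and 4, the CCAAT box in 11 and 4, and an NRF1 string in 4 and 1. The ATF4 composite was in 0 of the 17 and 1 of the 14, and an HLF string in 0 and 2. All of these are letter matches in short windows, several windows belong to a single gene, and no binding was measured here. The background of all windows was not matched to the members for expression or base content. Whether the motifs bear on the falls was not tested.

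MEF2C itself stood at 559.6, 559 and 536 CPM in the 3 controls, and at 495, 498 and 510 CPM with sgRNA_96 and 553, 505 and 495 CPM with sgRNA_97. CPM is the read count per 1000000 counts of the library's scaled total, so it compares a gene between libraries and not genes with each other. The log2 fold change of MEF2C in KO against SCR1 was -0.12 (SE 0.04) with an adjusted p of 0.0620, above the threshold of 0.05. Library totals ran from 15212462 to 29777361 counts. On the first 2 principal components, the controls lay apart from the KO libraries on the first, and sgRNA_96 replicate 1 and sgRNA_97 replicate 1 lay at opposite ends of the second. All 9 B lineage markers were detected, whereas CD3D, CD3E, CD3G and all 5 erythroid markers were at 0 in every library. The summed level of the B lineage list was 3975 to 3996 CPM in the controls and 4224 to 4485 CPM in the KO libraries, that of the T cell list 52.0 to 54.7 and 41.4 to 50.11 CPM, that of the myeloid list 26.3 to 27.4 and 29.9 to 35.9 CPM, and that of the stroma list, with COL1A2 and COL3A1 at 0, 19.3 to 24.2 and 17.4 to 20.8 CPM. Only 1 of the 5 T cell genes reached 10 counts in a library, so that sum rests almost wholly on 1 gene. The part of these marker lists in the results below was not tested.

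Nucleotide and one-carbon genes were lower in the MEF2C-enhancer KO. Of the 35, 20 fell (57.1%) and none rose, against 10.6% of all 14436 genes tested that were called lower and 10.1% that were called higher. The genes were chosen with earlier results of these data known, so this contrast is a description. All 35 passed the filter on low counts. Among the 8267 genes whose mean level lay within the range of the members, 15.5% were called lower. The log2 fold change was below 0 for 32 of the 35, with a median of -0.18, and ranged from -0.49 to 0.09. The median over all genes was 0.00. In 17 of the members every KO library lay below every control, an arrangement found in 10.2% of all genes tested. In bulk RNA, fewer cells that express a gene and less RNA per cell cannot be told apart. The plot of fold changes by branch shows 6 of 7 deoxynucleotide and 4 of 5 folate genes called lower, beside 7 of 14 purine, 2 of 6 pyrimidine and 1 of 3 serine genes.

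**Figure D1:**
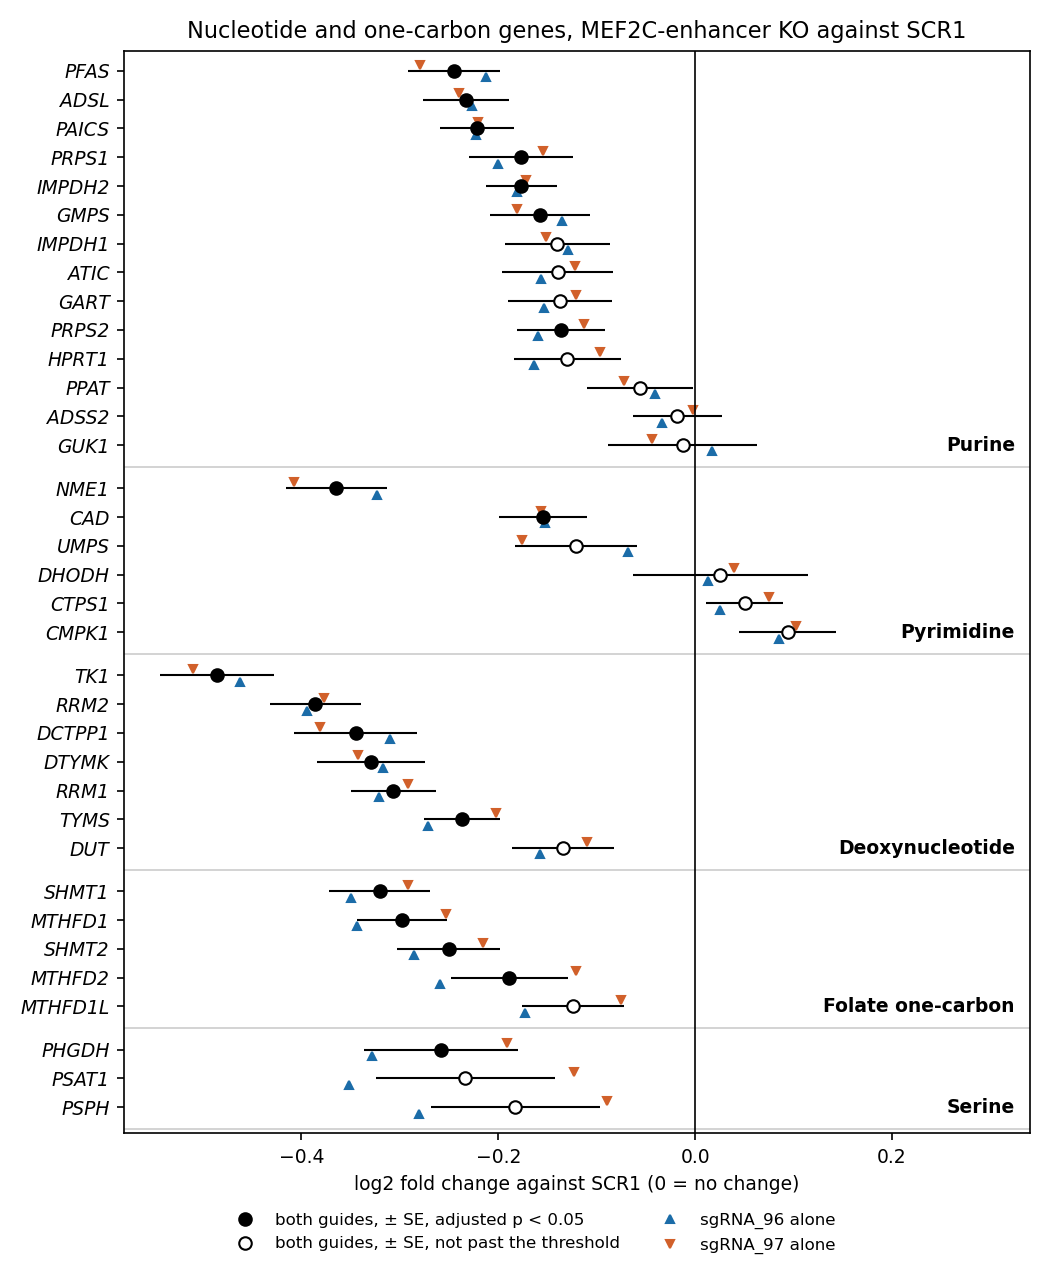
Log2 fold change against SCR1 for each of the 35 genes, by branch. Circles give the comparison of all 6 KO libraries with the 3 controls with its standard error, filled where the adjusted p was under 0.05, and triangles give each guide alone. Filled circles all lie left of 0, TK1 lies farthest left at -0.49, and the 3 genes right of 0 (DHODH, CTPS1 and CMPK1) are open.

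In the deoxynucleotide branch 6 of 7 genes fell. TK1, the cytosolic thymidine kinase that salvages thymidine, stood at 170.5, 156 and 150.3 CPM in SCR1 replicates 1, 3 and 4, at 124, 117 and 105 CPM with sgRNA_96 and at 106, 109 and 120.1 CPM with sgRNA_97. No KO library reached the lowest control. TK1 was 28.6% lower in the KO libraries (log2 fold change -0.49, SE 0.06, adjusted p = 3.27e-05), the largest fall of the 35. RRM2, the regulatory subunit of ribonucleotide reductase, was measured at 351, 382 and 344 CPM in the controls, at 258, 272 and 289 CPM with sgRNA_96 and at 274, 288 and 267 CPM with sgRNA_97, again without overlap. Its log2 fold change was -0.39 (SE 0.05, adjusted p = 3.49e-05). RRM1, the catalytic subunit, averaged 229.9 ± 7.38 CPM over the 3 controls and 186 ± 7.26 CPM (mean ± SD) over the 6 KO libraries, and its log2 fold change was -0.31 (adjusted p = 0.000148).

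TYMS, thymidylate synthase, had 432, 441 and 429 CPM in the controls, 351, 359 and 368 CPM with sgRNA_96 and 384, 378 and 369 CPM with sgRNA_97. The groups were separate, and the log2 fold change was -0.24 (SE 0.04, adjusted p = 0.000526). ENOSF1 overlaps TYMS on the opposite strand, at 614 counts per library on average against 7608, and whether the counting used strand is not stated. DCTPP1, which removes excess and modified dCTP, was read at 78.8, 71.6 and 77.1 CPM in the controls, at 58.9, 63.9 and 60.8 CPM with sgRNA_96 and at 56.7, 52.8 and 65.4 CPM with sgRNA_97. All KO values lay below the controls, by a log2 fold change of -0.34 (SE 0.06, adjusted p = 0.00120). DTYMK, the thymidylate kinase, fell from 63.2 ± 1.57 to 50.3 ± 2.89 CPM (log2 fold change -0.33, adjusted p = 0.000588). DUT, the dUTPase that keeps uracil out of DNA, was the member of this branch that did not pass, at 164 ± 8.10 CPM in the controls and 149 ± 8.42 CPM in the KO libraries (log2 fold change -0.13, adjusted p = 0.0793). The plot of these 7 enzymes by library shows the gap in 6 of them and the overlap in DUT.

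**Figure D2:**
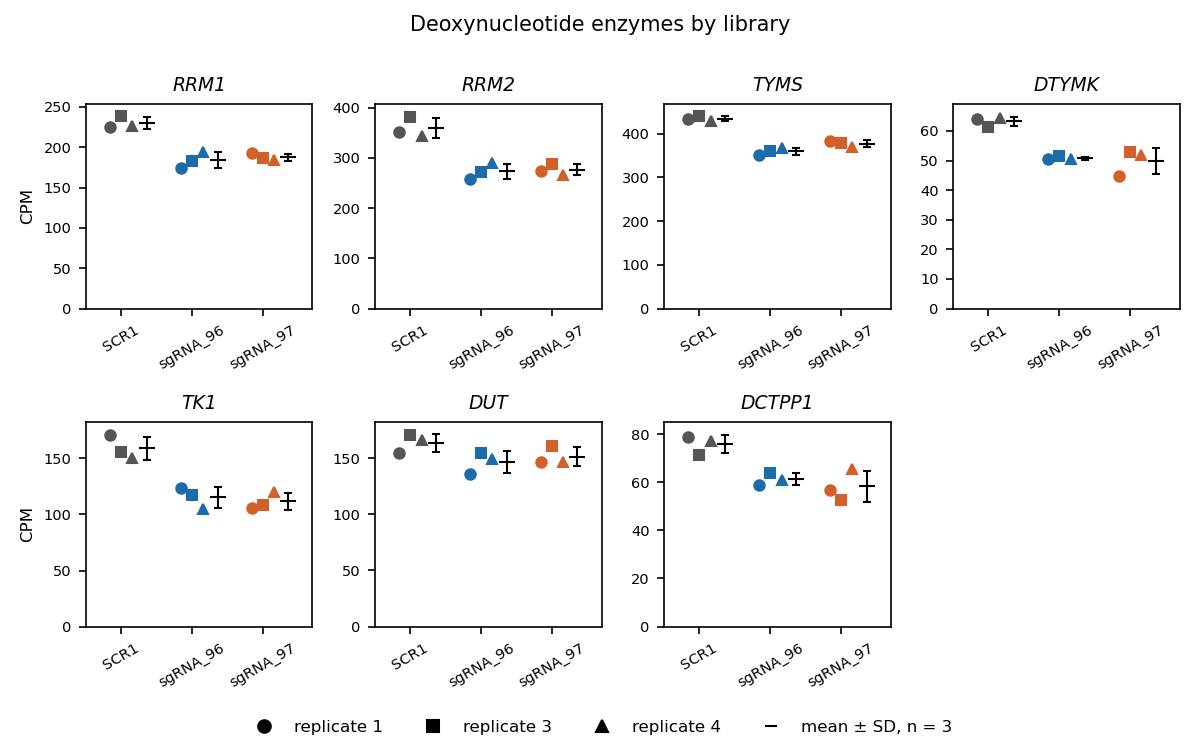
CPM of the 7 deoxynucleotide enzymes in each library, by guide, with the marker shape giving the replicate number and the bar the mean ± SD of 3 libraries. Every KO library lies below every control except in DUT, where sgRNA_97 replicate 3 (161 CPM) exceeds the lowest control (155 CPM).

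Paralogues that make deoxynucleotides outside S phase were measured beside them. RRM2B, a ribonucleotide reductase subunit induced by p53 and active in resting cells, rose from 33.4 ± 1.99 to 39.0 ± 2.75 CPM (log2 fold change 0.23, SE 0.07, adjusted p = 0.0270). TK2, the mitochondrial thymidine kinase, had a log2 fold change of 0.30 (SE 0.11) that missed the threshold (adjusted p = 0.0570). The log2 ratio of RRM2 to RRM2B was 3.43 ± 0.08 (SD, n = 3) in the controls and 2.82 ± 0.05 (SD, n = 6) in the KO libraries, a difference of -0.61, and every KO value lay below every control. For TK1 to TK2 the log2 ratio was 4.08 ± 0.13 and 3.30 ± 0.16, a difference of -0.78, likewise without overlap. These ratios were picked after the values were seen and are given as a description, with no test.

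In the folate branch 4 of 5 genes fell, in the cytosol and in mitochondria. SHMT1, the cytosolic serine hydroxymethyltransferase, was recorded at 50.2, 50.7 and 49.96 CPM in the controls, at 39.8, 38.2 and 40.4 CPM with sgRNA_96 and at 39.4, 42.0 and 41.8 CPM with sgRNA_97. The gap between the groups was wider than the spread within either, with a log2 fold change of -0.32 (SE 0.05, adjusted p = 0.000420). SMCR8 overlaps SHMT1 on the opposite strand, at 780.1 counts per library against 854. MTHFD1, the cytosolic enzyme that makes formyl-folate for the purine ring, had 215, 222 and 225 CPM in the controls, 179.9, 166 and 176 CPM with sgRNA_96 and 185, 179.5 and 191 CPM with sgRNA_97. It fell by 0.30 on the log2 scale (SE 0.05, adjusted p = 0.000292), and the KO and control values did not overlap.

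SHMT2, the mitochondrial counterpart of SHMT1, was at 277, 267 and 259.7 CPM in the controls, at 228, 225 and 207 CPM with sgRNA_96 and at 211, 248 and 233 CPM with sgRNA_97. The highest KO library, sgRNA_97 replicate 3, stayed under the lowest control, and the log2 fold change was -0.25 (SE 0.05, adjusted p = 0.00332). MTHFD2, the mitochondrial methylene-folate dehydrogenase, measured 239.5, 257 and 236 CPM in the controls, 194.5, 214 and 203 CPM with sgRNA_96 and 219, 244 and 209 CPM with sgRNA_97. Here sgRNA_97 replicate 3 lay inside the control range. MTHFD2 fell by 0.19 on the log2 scale (SE 0.06, adjusted p = 0.0324), a call that was lost under 8 of 15 alternatives, namely the length offset, limma on TPM, and leaving out sgRNA_96 replicate 3 or 4, sgRNA_97 replicate 4 or any 1 of the 3 controls (adjusted p up to 0.136). MTHFD1L, which releases formate from mitochondria, had a log2 fold change of -0.12 (adjusted p = 0.103).

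In the serine branch 1 of 3 genes fell, a count too small to set the branch apart from the 10.6% of all genes tested. The library sgRNA_97 replicate 3 again stood apart. PHGDH, which commits glycolytic carbon to serine, stood at 390.2, 372 and 360.5 CPM in the controls, at 292, 329.9 and 272 CPM with sgRNA_96 and at 286, 382 and 315 CPM with sgRNA_97. In the KO group 5 of 6 values lay below all controls, and that of sgRNA_97 replicate 3 lay within the control range. The log2 fold change was -0.26 (SE 0.08, adjusted p = 0.0283), in DESeq2 the adjusted p was 0.0722, and without any 1 of the 3 controls the call was lost (adjusted p up to 0.136). PSAT1, the phosphoserine aminotransferase, was at 119 ± 5.93 CPM in the controls and 101 ± 15.4 CPM in the KO libraries (log2 fold change -0.23, adjusted p = 0.0811). PSPH, the phosphatase that completes serine, was at 39.6 ± 0.92 and 34.8 ± 4.46 CPM (log2 fold change -0.18, adjusted p = 0.147).

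In sgRNA_97 replicate 3 the values were 131 CPM for PSAT1 and 42.6 CPM for PSPH, above every control. For PSAT1 the remaining 5 of the KO group ranged from 86.1 to 99.3 CPM, below every control. Relative to the mean of log2 CPM in the controls, this library was at 0.03, 0.14 and 0.11 for PHGDH, PSAT1 and PSPH, while the means of the other 5 were -0.33, -0.33 and -0.25. It was also the highest KO library for SHMT2, MTHFD2 and MTHFD1L, and for ASNS, SLC3A2, SLC7A5, SLC1A4, GPT2 and ATF4, a set picked after the values were seen that holds asparagine synthetase, amino acid carriers, an aminotransferase and the transcription factor of the amino acid response. ASNS stood at 96.7 CPM there and, in the rest of the KO group, between 52.0 and 68.2 CPM. Without this library PSAT1 (log2 fold change -0.32, adjusted p = 0.000921), PSPH (-0.25, adjusted p = 0.0219), MTHFD1L (-0.15, adjusted p = 0.0388) and DUT (-0.16, adjusted p = 0.0453) were called lower as well, PHGDH moved to -0.32 (adjusted p = 0.00132), and PRPS2 and GMPS lost their calls, which left 22 of 35 called. PHGDH, PSAT1, PSPH, MTHFD1L and DUT had their highest KO value in this library. Deeper falls without it therefore follow from its removal and are only a description.

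**Figure D3:**
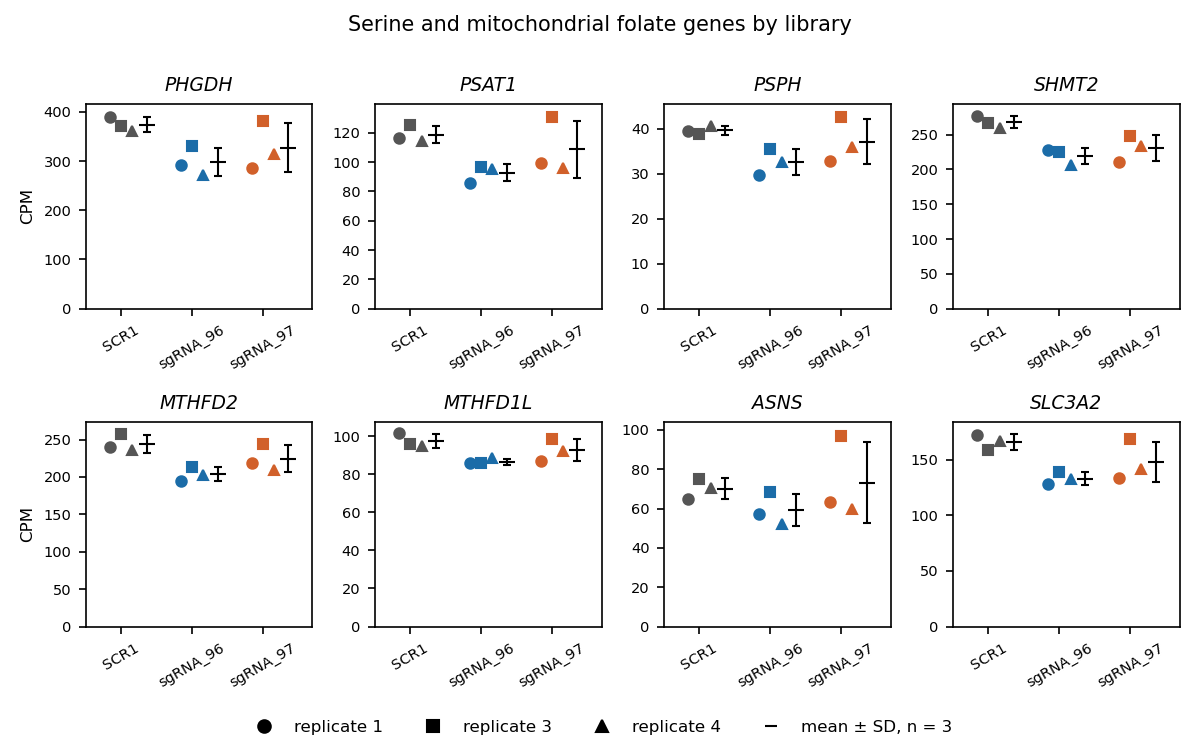
CPM of the 3 serine enzymes, of 3 folate enzymes of mitochondria and of ASNS and SLC3A2, which are not among the 35, in each library by guide. Marker shapes give the replicate number and bars the mean ± SD of 3 libraries. The square of sgRNA_97 replicate 3 is the highest KO value in all 8 panels and reaches the controls in 7, the exception being SHMT2.

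In the purine branch 7 of 14 genes fell, and the first committed enzyme was not among them. PPAT, the amidotransferase that commits ribose phosphate to purines, stood at 91.0, 88.1 and 91.2 CPM in the controls, at 82.8, 83.96 and 96.1 CPM with sgRNA_96 and at 88.8, 80.7 and 87.8 CPM with sgRNA_97. The groups overlapped, and the log2 fold change was -0.06 (SE 0.05, adjusted p = 0.506). PAICS, which carries out a pair of later steps of ring assembly, had 519.7, 533 and 511 CPM in the controls, 438, 442 and 460.4 CPM with sgRNA_96 and 465, 445 and 432 CPM with sgRNA_97. Its values did not overlap, and it fell by 0.22 on the log2 scale (SE 0.04, adjusted p = 0.000751). PPAT and PAICS are neighbours on chromosome 4 that are read in opposite directions, with 126 bases between their annotated starts at 56435615 and 56435741 (GENCODE release 44, hg38). The log2 ratio of PAICS to PPAT was 2.53 ± 0.06 in the controls (SD, n = 3) and 2.37 ± 0.07 in the KO libraries (SD, n = 6), below every control in 6 of 6. The pair was picked after the values were seen, and no test is given. On TPM the difference was -0.19.

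PFAS, which adds a nitrogen to the growing ring, stood at 144, 141 and 149.7 CPM in the controls, at 129, 124 and 122 CPM with sgRNA_96 and at 120.4, 113 and 125 CPM with sgRNA_97. The groups were separate, with a log2 fold change of -0.25 (SE 0.05, adjusted p = 0.00161). This value depended on how transcript length was treated: with the effective lengths that Salmon estimated as an offset the log2 fold change was -0.02 (adjusted p = 0.864), and mean TPM was 47.5 ± 3.98 (SD, n = 3) in the controls and 46.8 ± 3.27 (SD, n = 6) in the KO libraries. ADSL, adenylosuccinate lyase, which acts in ring assembly and again in AMP synthesis, was at 120.4, 115 and 126 CPM in the controls, at 106, 102 and 101 CPM with sgRNA_96 and at 99.9, 104 and 102 CPM with sgRNA_97. It fell by 0.23 on the log2 scale (SE 0.04, adjusted p = 0.00144), without overlap. SGSM3 overlaps ADSL on the same strand at a similar level, 1921 against 2119 counts per library, so the split between these genes rests on Salmon's assignment of reads.

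IMPDH2, the rate-limiting enzyme of guanine nucleotide synthesis in dividing cells, fell from 405 ± 9.44 to 359 ± 5.97 CPM (log2 fold change -0.18, adjusted p = 0.00288), while its paralogue IMPDH1 was at 101 ± 5.05 and 91.8 ± 5.20 CPM (log2 fold change -0.14, adjusted p = 0.0741). Whether the paralogues differed was not tested. GMPS, the next enzyme toward GMP, had a log2 fold change of -0.16 (adjusted p = 0.0365), with 1 of 6 KO libraries inside the control range. The synthetases of the ribose phosphate donor fell too, PRPS1 from 87.3 ± 3.51 to 77.2 ± 4.38 CPM (log2 fold change -0.18, adjusted p = 0.0256) and PRPS2 from 74.1 ± 0.89 to 67.4 ± 1.98 CPM (-0.14, adjusted p = 0.0418). The calls of GMPS, PRPS1 and PRPS2 were lost under 7, 6 and 11 of 15 alternatives. GART and ATIC, multifunctional enzymes of ring assembly, and HPRT1, which salvages guanine and hypoxanthine, did not pass, with log2 fold changes of -0.14, -0.14 and -0.13 and adjusted p-values of 0.0757, 0.0935 and 0.103. ADSS2, on the way to AMP, was at 78.0 ± 3.78 and 77.0 ± 1.42 CPM, and GUK1, the guanylate kinase, at 84.1 ± 8.604 and 83.6 ± 7.91 CPM, with adjusted p-values of 0.823 and 0.927.

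In the pyrimidine branch 2 of 6 genes fell, CAD and NME1, a small count set beside 10.6% of all genes tested. NME1, a nucleoside diphosphate kinase that makes triphosphates of both base types, was at 198, 170.7 and 184 CPM in the controls, at 152, 145 and 145 CPM with sgRNA_96 and at 145, 137 and 136 CPM with sgRNA_97. No KO value reached the lowest control. The log2 fold change was -0.36 (SE 0.05, adjusted p = 0.000140), and -0.35 when the counts of the readthrough gene NME1-NME2, at 189.7 counts per library against 3097, were added. CAD, the trifunctional enzyme that opens the pathway, had 159.99, 157 and 154 CPM in the controls, 143, 144 and 137 CPM with sgRNA_96 and 135, 136 and 151 CPM with sgRNA_97. CAD fell by 0.15 on the log2 scale (SE 0.04, adjusted p = 0.0221) without overlap, a call that was lost without any 1 of the 3 controls (adjusted p up to 0.110), with the length offset (0.329) and in limma on TPM (0.448). UMPS, which completes UMP, was at 57.9 ± 1.81 and 53.2 ± 4.05 CPM (log2 fold change -0.12, adjusted p = 0.187). The remaining members had log2 fold changes above 0 that did not pass the test: 0.03 for DHODH, the mitochondrial dehydrogenase (adjusted p = 0.871), 0.05 for CTPS1, the CTP synthase of proliferating lymphocytes (adjusted p = 0.406), and 0.09 for CMPK1, the UMP and CMP kinase (adjusted p = 0.198). The value of DHODH depended on transcript length: it was 0.39 with the length offset (adjusted p = 0.139) and 0.33 in limma on log2(TPM + 1) (adjusted p = 0.212), and mean TPM was 7.05 ± 0.63 (SD, n = 3) in the controls and 9.29 ± 1.91 (SD, n = 6) in the KO libraries.

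The heat map of all 35 genes by library shows these patterns together.

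**Figure D4:**
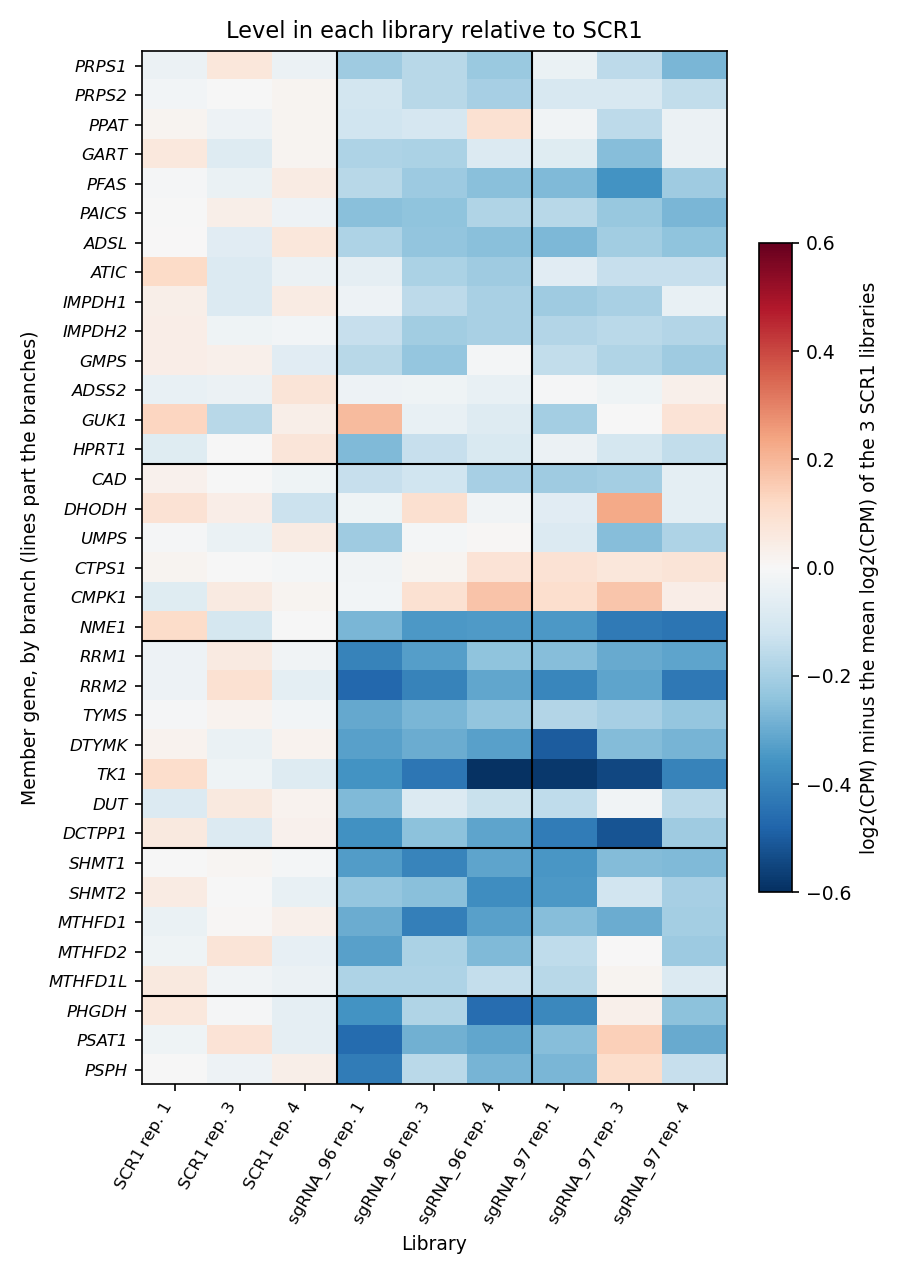
Log2 CPM of each gene (rows, by branch) in each library (columns) minus the mean of log2 CPM in the 3 controls. All 7 deoxynucleotide rows are below 0 in all 6 KO libraries, palest for DUT and down to TK1 in sgRNA_96 replicate 4 (105 CPM against a control mean of 159 CPM), while the serine rows turn from blue to pale red in sgRNA_97 replicate 3.

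Per transcript length, as mean TPM in the controls, TYMS was the most abundant of the 35 (459 ± 17.4 TPM, SD, n = 3), followed by IMPDH2 (349 ± 8.24), NME1 (326 ± 19.97) and PHGDH (323 ± 8.85). NME1 did not differ beyond its spread from PHGDH below it, and its mean ± SD overlapped that of IMPDH2 above it. DHODH was the least abundant (7.05 ± 0.63 TPM), followed by PPAT (34.6 ± 2.51), SHMT1 (35.5 ± 1.22) and CAD (36.1 ± 6.77), and the last 3 did not differ beyond their spread. PAICS, at 251 ± 11.2 TPM, was among the most abundant while its neighbour PPAT ranked next to last.

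The guides were then compared. With sgRNA_96, 17 of 35 members were called lower (48.6%, against 5.41% of all genes), and with sgRNA_97 14 (40.0%, against 7.76%), and none was called higher with either. Both comparisons use the same 3 controls, and the 14 genes of sgRNA_97 were all among the 17 of sgRNA_96: ADSL, DCTPP1, DTYMK, IMPDH2, MTHFD1, NME1, PAICS, PFAS, RRM1, RRM2, SHMT1, SHMT2, TK1 and TYMS. The 3 others called with sgRNA_96 were MTHFD2 (log2 fold change -0.26 with sgRNA_96 and -0.12 with sgRNA_97), PHGDH (-0.33 and -0.19) and PSAT1 (-0.35 and -0.12). CAD, GMPS, PRPS1 and PRPS2 passed only when the guides were pooled. In the direct test of sgRNA_97 against sgRNA_96, edgeR called no member, with 2 at an unadjusted p under 0.05, and it called 0.0208% of all genes. DESeq2 called none of the 35 either. The difference ranged from -0.11 for UMPS (SE 0.07) to 0.23 for PSAT1 (SE 0.10). All 5 folate and all 3 serine members had a value above 0, that is a smaller fall with sgRNA_97. The part of any single library in this was not tested.

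Genes of the same routes outside the 35 were counted from lists that were also chosen with earlier results of these data known. Of 48 genes of nucleotide salvage and breakdown, 40 were tested, of which 7 fell and 5 rose, with a median log2 fold change of -0.03. Of all genes tested 10.6% were called lower and 10.1% higher, and 15.5% were called lower in the level range of the 35, so these counts lie near the background. SLC29A1, a carrier that brings nucleosides into the cell, fell from 78.7 ± 6.10 to 58.6 ± 3.47 CPM (log2 fold change -0.43, adjusted p = 0.000135). ITPA, which removes inosine triphosphate, and SAMHD1, which degrades deoxynucleotides, had log2 fold changes of -0.32 and -0.21 (adjusted p = 0.00525 and 0.0372). The largest rises were AMPD3, an AMP deaminase of low level (1.36 ± 0.28 to 2.29 ± 0.45 CPM, log2 fold change 0.76, adjusted p = 0.0429), DPYD, which starts the breakdown of uracil and thymine (57.7 ± 4.41 to 75.7 ± 4.64 CPM, 0.39, adjusted p = 0.000385), and RRM2B.

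Of 27 genes of folate supply and the methionine cycle 20 were tested, and 4 fell and 1 rose, with a median of -0.04, also near that background. SLC19A1, the reduced folate carrier, and GGH, which trims the glutamate tail of folates, fell by 0.26 and 0.25 on the log2 scale (adjusted p = 0.0380 and 0.0113). AHCYL2 rose (0.26, adjusted p = 0.0162). Among 22 genes of serine and glycine supply, 21 were tested, 7 fell and 2 rose, with a median of -0.12, beside the same 10.6% of all genes called lower and 10.1% higher. SLC1A4, a carrier of serine and alanine, SLC7A5, the large neutral amino acid carrier, and GOT2, the mitochondrial aspartate aminotransferase, had log2 fold changes of -0.30, -0.25 and -0.25 (adjusted p = 0.0100, 0.00611 and 0.00426). AMT, a subunit of the glycine cleavage system and of low level, rose from 0.89 ± 0.33 to 2.19 ± 0.91 CPM (log2 fold change 1.27, adjusted p = 0.0201). Its log2 fold change was 0.78 with sgRNA_96 (adjusted p = 0.171) and 1.64 with sgRNA_97 (adjusted p = 0.00534). The highest AMT value, 3.79 CPM, was in sgRNA_97 replicate 3.

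Of 29 genes of DNA replication and cell division, measured beside the 35, 24 fell and none rose, with a median log2 fold change of -0.28, against 10.6% of all genes tested that were called lower. The largest falls were those of MYBL2 (-0.51, adjusted p = 3.30e-05), CCNE1 (-0.50, adjusted p = 0.0172) and GINS2 (-0.50, adjusted p = 1.82e-06), which act in the cell cycle and at the replication origin. MKI67, TOP2A and MYC were among the 5 genes of this list that were not called, and they were named after their values were seen. Their log2 fold changes were -0.07, -0.08 and 0.11 (adjusted p = 0.208, 0.281 and 0.178). Like MKI67 and TOP2A, CCNA2 and PLK1 mark cycling cells, and both were among the 24 that fell. Their log2 fold changes were -0.29 and -0.24 (adjusted p = 0.000500 and 0.00868). How far the share of cells in S phase accounts for the values of the nucleotide genes was not tested.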

How the data were processed

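Polyadenylated RNA of 9 HAL-01 libraries was sequenced. Per the study's methods, the authors removed adapters with TrimGalore, used STAR for alignment to hg38 and Salmon 1.10.1 (version per the submitters' processing notes) for quantification. They deposited estimated counts per transcript, not normalized, and TPM, which Salmon scales by effective transcript length and library. The annotation release and the use of strand are not given in the sources used here. All 252835 transcripts matched GENCODE release 44, and none lacked a gene.

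Estimated counts were summed per gene, rounded, filtered with filterByExpr (minimum count 10) and scaled by TMM. The 14436 genes left went through edgeR 4.0.16 (R 4.3.3), by its quasi-likelihood test, and p-values were adjusted over all of them after Benjamini and Hochberg, with a threshold of 0.05. Where no other tool is named, an adjusted p is from edgeR. The KO comparison set 6 libraries against 3, and the guides were compared in a fit with 3 groups. The fits were also run on simulated counts. Neither the settings nor the outcome of that check are given here, so it lends no support to calls of the size reported. Between replicates, chi-square per degree of freedom was 4.31 to 8.59, so none was a duplicate. Depth was 15212462 to 29777361 counts per library, and the common biological coefficient of variation was 0.0724.

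Alternatives were DESeq2 1.42.0, RLE size factors, no expression filter, a gene length offset, limma 3.58.1 on log2(TPM + 1), a replicate block, each library left out in turn, and NME1-NME2 counts added to NME1. The genes, branches and lists were chosen with earlier results of these data known. A value in every library is given for PPAT, CAD, TYMS, RRM2, MTHFD2, SHMT2 and PHGDH and for the 3 largest changes of each branch past the threshold. From each other list at most the 3 largest rises and 3 largest falls with a mean of at least 1 CPM are named, and some genes that this rule picks are not reported here. TK2, ASNS, SLC3A2, GPT2, ATF4, MKI67, TOP2A, MYC, CCNA2 and PLK1 were named after their values were seen.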

Additional observations from a re-analysis of the deposited data

Results flagged for a closer look

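In 4 of the 53 genes checked, the 35 members and the 18 picked from the other lists, 1 of the 6 KO libraries lay far from the others, its gap to the nearest value exceeding Dixon's 95% limit as a share of the range. Chance gives about 1 in 20, or 2.65 of 53. PSAT1 was at 131 CPM in sgRNA_97 replicate 3 and at 86.1 to 99.3 CPM in the other KO libraries. GMPS was at 154 CPM in sgRNA_96 replicate 4 and at 132 to 140.04 CPM in the others. DTYMK was low, at 44.7 CPM, in sgRNA_97 replicate 1 and at 50.4 to 52.7 CPM elsewhere. ITPA was at 46.5 CPM in sgRNA_96 replicate 1 against 36.7 to 40.1 CPM.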

How the results depend on the processing

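In the KO comparison 13 of the 20 called members stayed called under all 15 alternatives: ADSL, DCTPP1, DTYMK, IMPDH2, MTHFD1, NME1, PAICS, RRM1, RRM2, SHMT1, SHMT2, TK1 and TYMS. The others, PFAS, CAD, PRPS1, PRPS2, GMPS, MTHFD2 and PHGDH, lost the call at least once. Of 526 single values, 462 kept their direction and side of the threshold, 43 lost a call, 12 gained one and 9 changed sign, none of a called member. The count of 20 was 19 in DESeq2, 20 with RLE size factors, 22 without the expression filter, 14 with the length offset and 14 in limma. Leaving out 1 library gave 14 to 22 (KO), 11 to 20 (sgRNA_96, 11 without SCR1 replicate 1 or 4), 11 to 15 (sgRNA_97) and 0 for the difference between guides. With the length offset and in limma the 17 calls of sgRNA_96 became 9 and 7 and the 14 of sgRNA_97 became 9 and 8, and calls over all genes in the KO comparison went from 2984 to 1524 and 1240. Without SCR1 replicates 1 and 4 they were 1503 and 1813. The cause was not tested. Signs changed for ADSS2 (0.0230 with the length offset, 0.0253 in limma, -0.0437 to 0.0226 with a library left out), GUK1 (-0.0913 to 0.0541) and DHODH (-0.0355 to 0.0722), none of them called. DHODH moved from 0.03 to 0.39 with the length offset and 0.33 in limma. Replicate numbers did not pair the libraries, since same-numbered libraries of different groups had correlated deviations between -0.066 and 0.055. With the replicate block 22 members were called in the KO comparison, 18 with sgRNA_96 and 14 with sgRNA_97. Depth limits DHODH most, at 14.2 to 18.2 CPM.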

Other observations

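Most reads of the members were assigned to protein-coding transcripts. TK1-201 took 94.9% of the counts of TK1, RRM1-201 97.4% of RRM1, CAD-201 95.3% of CAD and TYMS-203 80.5% of TYMS, on average over the 9 libraries. UMPS was the exception among the 35, with 33.5 ± 5.26% (SD, n = 3) of its counts on coding transcripts in the controls and 35.4 ± 2.05% (SD, n = 6) in the KO libraries. For 3 of the 35, DHODH, CMPK1 and PHGDH, the coding share was lower in every KO library than in any control. For DHODH it was 93.4 to 97.1% in the controls and 84.6 to 88.1% in the KO libraries. The gaps were smaller for CMPK1 (99.35 to 99.4% and 98.43 to 99.28%) and PHGDH (90.27 to 90.51% and 88.19 to 89.88%). How often such a separation occurs over all genes was not counted, and its part in the fold changes was not tested.

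The highest KO library was sgRNA_97 replicate 3 for 10 of the 35 genes, sgRNA_96 replicate 1 for 8 and sgRNA_96 replicate 3 for none. The lowest was sgRNA_96 replicate 1 for 11.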
